A study of Mus musculus with 4 samples.

Results

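Genes of the ERK negative-feedback circuit were followed in tdTom+ cells sorted from the mouse spine. They were the Sprouty genes Spry1, Spry2 and Spry4, the phosphatase genes Dusp4, Dusp5 and Dusp6, the transcription factor genes Etv4 and Etv5, and Phlda1. These 9 genes were taken by symbol from the 32286 genes listed in each count matrix, and none was chosen by its level. Earlier results of these data were known when they were chosen. The tdTom+ cells came from the T11 to L2 vertebrae and were profiled singly on the 10x platform, which reads the 3′ ends of mRNAs, with 1 library for each genotype and age. Control mice were Prss56Cre/+;R26tdTom/tdTom;Nf1+/+ and mutant mice were Prss56Cre/Cre;R26tdTom/tdTom;Nf1fl/fl, each at 3 months and at 12–16 months. All mice thus carried the tdTomato reporter on both R26 alleles and Cre at the Prss56 locus, with 1 Cre allele in controls and 2 in mutants, so that the effects of Cre dose and of Nf1 cannot be told apart. Prss56 drives Cre in boundary cap cells, and the reporter also marks the descendants of Prss56-expressing cells. The vertebrae taken were those in which tdTom could be detected, and immune, endothelial and dead cells were gated out in the sort. The labels do not give the number of mice per library.

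Nf1 encodes neurofibromin, a GTPase-activating protein that switches RAS off. Active RAS signals through RAF and MEK to ERK, which induces its own inhibitors. Sprouty proteins act on receptor signalling upstream of RAF, and DUSP4, DUSP5 and DUSP6 remove phosphate from ERK, DUSP6 in the cytoplasm and DUSP5 in the nucleus. ETV4 and ETV5 are ETS-family transcription factors induced by FGF signalling, and Phlda1 is an immediate early-type gene with a pleckstrin homology-like domain. In cartilage, FGFR3 signalling through ERK restrains growth plate chondrocytes, and these feedback genes are commonly read as a record of recent ERK activity. Here only their mRNA was measured.

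A unique molecular identifier (UMI) marks 1 captured RNA molecule, and a level is the share of a gene in all UMIs of a group of cells, scaled to 1000000 (CPM). In all, 1757 cells passed the filters, with median depths of 11467 UMIs in the 3-month control library, 12644 in the 3-month mutant, 11702 in the 12–16-month control and 8189 in the 12–16-month mutant. This order of libraries is kept below. Cells were gated by marker UMIs. The endplate gate (Sox9 of at least 1 UMI, Zfp804b plus Dab1 of at least 3) held 30, 142, 12 and 38 cells, the other cartilage gate (Sox9 of at least 1, Acan of at least 3) held 532, 235, 78 and 220, and the bone and stroma gate (Acan of at most 2, Runx2 of at least 1) held 45, 39, 26 and 83. The remaining 277 cells fell in no gate. No cell barcode was shared between libraries. Nf1 mRNA had 131, 149.7, 147 and 125 CPM over all passing cells, and the 3-month mutant library thus had the highest level. Reads from the 3′ end may miss a loss of internal exons, and the libraries are therefore called by their labels.

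Zfp804b and Dab1 set the endplate gate, so that of its 3 markers only Kcnd2 bears on it independently. Kcnd2 had 69.3, 341, 144 and 1054 CPM in the endplate gate and 2.75, 16.0, 2.01 and 71.9 CPM in other cartilage, and was thus higher in endplate within each library, though the lowest endplate value lay below the highest value of other cartilage. It was found in 10, 23, 4 and 13 endplate cells, and 355 of its 950 UMIs in the 3-month mutant lay in 1 cell. All 6 chondrocyte markers were found in both gates of every library. Among them Sox9 sets both gates and Acan sets other cartilage, so that their presence there was fixed by the gates. Col10a1, the paper's hypertrophic chondrocyte marker, was found in 3 of 30, 12 of 142, 0 of 12 and 6 of 38 endplate cells. In other cartilage it was found in 103 of 532, 30 of 235, 15 of 78 and 60 of 220 cells. The 4 hypertrophic markers summed to 4079, 1508, 709 and 2158 CPM in endplate and 430, 1117, 201 and 1607 CPM in other cartilage. The paper places such chondrocytes in the endplate, so other cartilage may include endplate cells. Immune and endothelial markers summed to at most 4.01 CPM in the endplate gate. The bone and stroma gate was less uniform. In its 3-month mutant library, 25 of 39 cells held a UMI of Ptprc, Cdh5 or Myh11, genes of immune, endothelial and smooth muscle cells, against 3 of 45, 2 of 26 and 10 of 83 in the other libraries. Cells with such a UMI are called marked cells below, and calls and counts for bone and stroma are given with and without them. With them, the immune list summed in the 3-month mutant to 5790 CPM with 5 of its 6 genes found, against 7.60, 926 and 2593 CPM in the others, and the osteoblast list to 8681 CPM against 81554, 139331 and 45001 CPM. Without marked cells the immune list summed to 3.90 to 17.9 CPM. Its gene Ptprc and the mural gene Myh11 are then at 0 by the definition of marked cells. The mural list (Acta2, Myh11, Rgs5 and Tagln) then still summed to 201 CPM in the 12–16-month mutant. In the other libraries it summed to 2.60, 12.0 and 16.1 CPM. Without marked cells the osteoblast list summed to 83734, 43771, 159350 and 50298 CPM in the order of libraries. The stroma list (Cxcl12, Lepr, Adipoq and Hp) summed to 4783, 11043, 4160 and 10958 CPM. The mix of cells thus still differed between the labels, and values without marked cells are not corrected for it.

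Promoters are shown because the gate results below turn on Spry1, Spry2, Dusp6 and Etv5, with Dusp5 as a member that no gate contrast called over all cells that passed and genes that passed the filter. RefSeq windows on GRCm38.p6 were found for 5 of the 9 members, and only bases before the annotated gene are printed, 5′ to 3′ on the strand of the gene. Capitals mark matches, on either strand, to the CArG box bound by serum response factor (CC, 6 bases of A or T, GG) or to the ETS-type words GGAAGT and CGGAAG. The AP-1 word TGANTCA and the CRE word TGACGTCA were also searched, with 0 matches in the members' windows. Spry1 is shown from 37639697 to 37639946 of chromosome 3 on the plus strand, Spry2 from 105896820 to 105897069 of chromosome 14 on the minus strand, Dusp5 from 53528895 to 53529108 of chromosome 19 on the plus strand, Dusp6 from 99262981 to 99263230 of chromosome 10 on the plus strand, and Etv5 from 22439720 to 22439820 of chromosome 16 on the minus strand.
Spry1: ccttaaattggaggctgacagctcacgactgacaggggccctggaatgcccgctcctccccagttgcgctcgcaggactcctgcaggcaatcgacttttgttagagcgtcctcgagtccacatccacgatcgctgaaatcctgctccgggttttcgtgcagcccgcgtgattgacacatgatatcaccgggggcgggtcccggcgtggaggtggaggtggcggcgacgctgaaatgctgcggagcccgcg
Spry2: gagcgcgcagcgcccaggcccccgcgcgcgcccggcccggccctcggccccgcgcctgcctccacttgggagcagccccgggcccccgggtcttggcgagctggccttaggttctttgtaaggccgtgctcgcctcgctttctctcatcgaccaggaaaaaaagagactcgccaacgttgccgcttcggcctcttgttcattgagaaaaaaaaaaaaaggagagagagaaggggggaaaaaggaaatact
Dusp5: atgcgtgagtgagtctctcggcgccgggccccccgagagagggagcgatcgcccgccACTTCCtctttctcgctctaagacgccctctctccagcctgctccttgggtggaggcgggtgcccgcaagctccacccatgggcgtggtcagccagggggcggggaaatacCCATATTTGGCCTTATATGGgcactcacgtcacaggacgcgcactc
Dusp6: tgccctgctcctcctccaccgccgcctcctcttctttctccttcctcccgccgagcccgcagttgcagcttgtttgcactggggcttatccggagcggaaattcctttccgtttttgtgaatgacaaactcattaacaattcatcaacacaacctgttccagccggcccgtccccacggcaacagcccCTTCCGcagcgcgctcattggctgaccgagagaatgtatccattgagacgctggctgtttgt
Etv5: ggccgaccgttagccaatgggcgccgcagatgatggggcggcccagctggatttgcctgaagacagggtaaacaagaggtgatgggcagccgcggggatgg
Dusp5 held 2 adjacent CArG boxes, from 82 to 63 bases before the RefSeq start, a motif found in 1.47% of the 32851 windows of 250 bases, and a GGAAGT word, found in 19.7% of them. Dusp6 held a CGGAAG word 62 to 57 bases before its start, found in 13.6% of windows. A second Etv5 window, which lies inside the annotated gene and is not printed, held GGAAGT. No searched word was found in the Spry1, Spry2 and first Etv5 windows, which says only that these letters are not in these windows. The matches describe sequence and were not tested as binding sites.

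Of the 6 members that could be tested, 5 differed between at least 1 pair of gates. The share of all genes that did so is not given here, and the shares for each contrast follow below. Spry1 was higher in bone and stroma than in both cartilage gates. Spry2, Etv5 and Phlda1 were highest in other cartilage in 3, 4 and 3 of the 4 libraries, and Dusp6 had at most 3 UMIs in any endplate sum. In the plot of levels by gate, 3 UMIs are drawn where none was counted, since a count of 0 allows that level. Poisson and other counting intervals at 95% are given in parentheses, and they cover counting error only, not the spread between mice. No condition has a second library, so that a ratio at 1 age has no replicate check. Genotype and age were tested only over the 4 libraries of a gate together, with both as terms and no interaction. Gates were tested over the 4 libraries with edgeR's quasi-likelihood test on 12 sums of cells, the library as a block and Benjamini-Hochberg adjustment over 9828 genes. The 4 libraries in that test differ in genotype and age, and p-values measure the spread between libraries around each gate difference. Of the 9 members 6 passed the filter on low counts, and Spry4, Dusp4 and Etv4 did not.

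**Figure D1:**
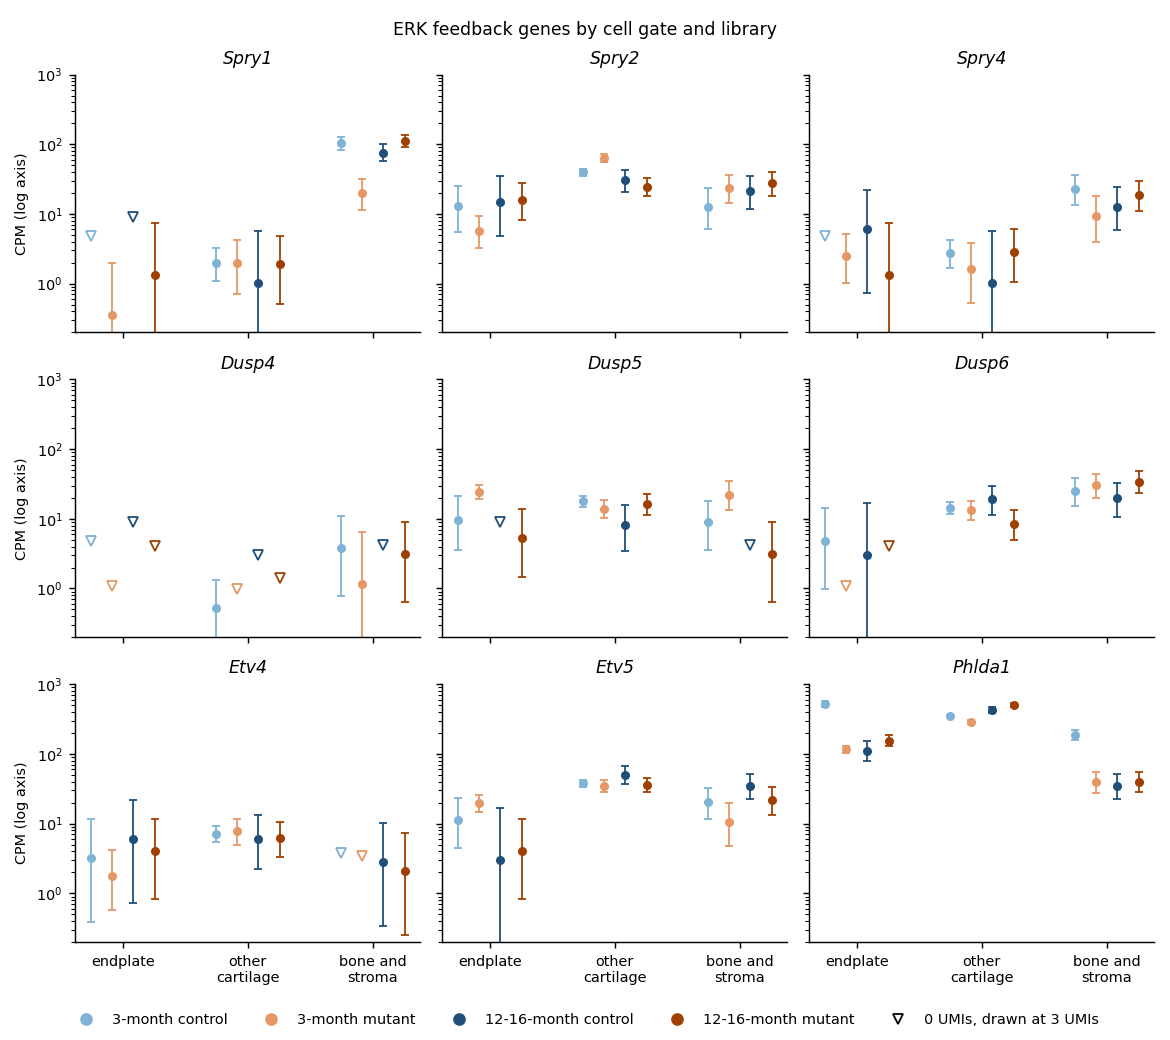
Level of each gene in CPM (log axis) in the 3 cell gates, 1 point per library with its 95% Poisson interval. Triangles mark 0 UMIs and are drawn at the level of 3 UMIs, and intervals that reach below 0.2 CPM run off the axis. Spry1 is high in bone and stroma, and Phlda1 is highest in other cartilage in every library but the 3-month control.

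Against other cartilage, 4 of the 6 tested members were lower in the endplate gate (Dusp6, Spry2, Etv5 and Phlda1) and 0 were higher. Of all tested genes, 9.78% were lower and 8.72% higher in this contrast. Against bone and stroma, Phlda1 was higher in the endplate gate, where 15.5% of all genes were, and Spry1 and Dusp6 were lower, as were 14.2% of all genes. Between other cartilage and bone and stroma, Phlda1 was higher in cartilage, where 18.7% of all genes were, and Spry1 was lower, as were 15% of all genes. Without marked cells the same calls held. Spry1 in endplate against other cartilage (−2.74, edgeR adjusted p = 0.0173) and Dusp5 in other cartilage against bone and stroma (2.01, 0.0333) were added. Of all genes, 13.7% were then higher and 14% lower in the first of these contrasts, and 22.7% and 18.7% in the second. For endplate against bone and stroma these shares were 18.1% and 16.8%. Against bone and stroma the endplate differences were then −8.24 for Spry1, −4.94 for Dusp6 and 1.30 for Phlda1 (edgeR adjusted p = 1e-07, 0.000363 and 0.0302), and the other cartilage differences −5.50 for Spry1 and 2.70 for Phlda1 (4.5e-08 and 0.000286). The endplate values of Spry1 and Dusp6 rest on near-empty sums and are not bounds. Nf1 itself differed little between the gates, with log2 differences of 0.03 to 0.20 and edgeR adjusted p = 0.954, 0.558 and 0.598.

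**Figure D2:**
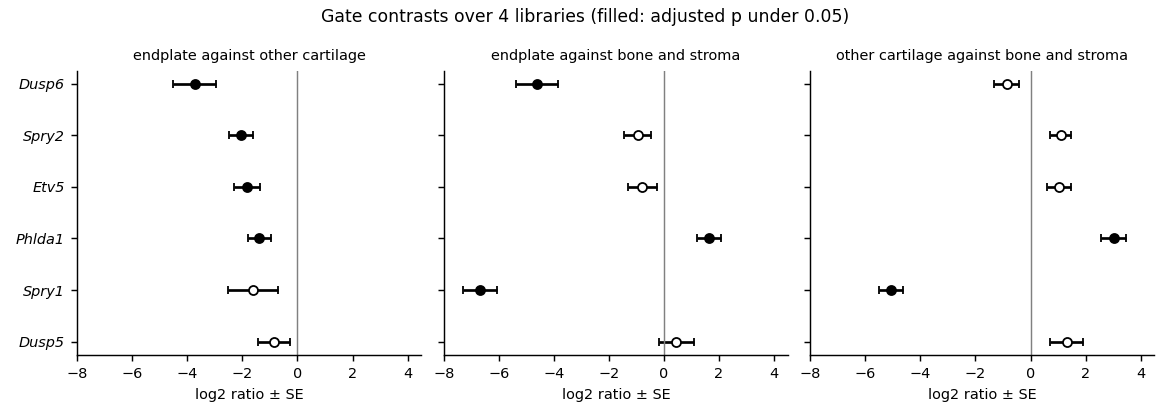
Differences between gates for the 6 tested members, as log2 ratio ± SE from edgeR over 4 libraries, with filled points where the adjusted p is under 0.05. Dusp6, Spry2, Etv5 and Phlda1 lie below 0 and filled in endplate against other cartilage, and Spry1 lies at −6.68 and −5.06 against bone and stroma.

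Spry1 (ENSMUSG00000037211, GRCm38 chromosome 3, 37639947 to 37644598) had 81, 17, 54 and 109 UMIs in bone and stroma, or 103 (81.5 to 128), 19.7 (11.5 to 31.6), 76.0 (57.1 to 99.2) and 112 (92.4 to 136) CPM. It had 0, 1, 0 and 1 UMIs in the endplate gate and 15, 6, 1 and 4 UMIs in other cartilage, at most 1.96 CPM. No library of either cartilage gate reached the lowest library of bone and stroma. Between endplate and bone and stroma the fitted log2 difference was −6.68 ± 0.61 (SE, n = 4 libraries, edgeR adjusted p = 3.12e-05), and between other cartilage and bone and stroma −5.06 ± 0.43 (edgeR adjusted p = 1.62e-05). The first rests on near-empty sums and is not a bound. With the 0 replaced by 3 counts, Spry1 was 21.2-fold and 8.43-fold lower in the endplate gate of the 3-month and 12–16-month control libraries. On the counted 0 the intervals of these ratios reached up to 0.0593 and 0.151. The ratios in the mutant libraries were 0.0182 (0.000436 to 0.116) and 0.0119 (0.000298 to 0.0677). Between endplate and other cartilage the difference of −1.62 ± 0.92 did not pass (edgeR adjusted p = 0.252), and without marked cells it was −2.74 (edgeR adjusted p = 0.0173, and 0.0173 to 0.849 over the alternatives). With all cells the ratios in the mutant libraries were 0.183 (0.00399 to 1.51) and 0.708 (0.0144 to 7.15). In the 3-month control the interval reached up to 3.43.

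The 3-month mutant value of Spry1 in bone and stroma changed most without marked cells. Then Spry1 had 103, 83.7, 58.0 and 122 CPM in the 4 libraries, with 14 UMIs in the 14 cells left in the 3-month mutant. The gate was also split, after the data were seen, at 10 UMIs of Cxcl12, the chemokine of marrow stromal cells. In the 17, 10, 9 and 49 cells above that limit Spry1 had 210.2, 95.3, 192 and 187 CPM, and in the 25, 4, 15 and 24 cells below it 51.8, 48.4, 14.9 and 35.1 CPM. Cells rich in Cxcl12 held more Spry1 in every library, with intervals that overlapped only in the 3-month mutant. The genes most like Spry1 over the 12 sums were Adipoq (r = 0.996) and Kng1 (r = 0.994), as Pearson r of log2(CPM + 10), a description over sums that share libraries. Adipoq is an adipokine gene also expressed by marrow stromal cells, and it belongs to the stroma marker list.

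Spry2 (ENSMUSG00000022114, chromosome 14, 105891947 to 105896819), a Sprouty gene broadly expressed under FGF signalling, had 39.7 (35.3 to 44.4), 63.7 (55.1 to 73.3), 30.2 (20.4 to 43.1) and 24.6 (18.4 to 32.2) CPM in other cartilage. In the endplate gate it had 8, 16, 5 and 12 UMIs, or 12.9 (5.57 to 25.4), 5.75 (3.29 to 9.34), 15.0 (4.88 to 35.1) and 16.1 (8.30 to 28.0) CPM. Every endplate value lay below every other cartilage value, and the ratios of endplate to other cartilage were 0.325, 0.0903, 0.498 and 0.653, with intervals that included 1 in the 12–16-month libraries. The fitted log2 difference was −2.05 ± 0.45 (edgeR adjusted p = 0.0114). Without the 3-month control library it was −2.10 with an edgeR adjusted p of 0.0564, the highest of the alternatives, which started at 8.19e-06. Bone and stroma, with 12.7, 23.2, 21.1 and 27.9 CPM, overlapped both cartilage gates, and the differences from them did not pass (edgeR adjusted p = 0.169 and 0.0576, and 0.1502 and 0.0513 without marked cells). With no filter on low counts, Spry2 was higher in other cartilage than in bone and stroma (log2 1.15, edgeR adjusted p = 0.00491). The share of all genes called with no such filter is not given here, for this call and those of other members below. The genes most like Spry2 over the 12 sums were Cys1 (r = 0.883) and Selenbp1 (r = 0.857).

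Spry4 (ENSMUSG00000024427, GRCm38 chromosome 18, 38586247 to 38601415) was scarce in cartilage, with 0, 7, 2 and 1 UMIs in the endplate gate and 21, 5, 1 and 6 in other cartilage, none above 6.01 CPM. In bone and stroma it had 18, 8, 9 and 18 UMIs, or 22.8 (13.5 to 36.0), 9.28 (4.01 to 18.3), 12.7 (5.79 to 24.0) and 18.6 (11.0 to 29.4) CPM, above every cartilage value. With no filter on low counts, other cartilage (log2 −2.57, edgeR adjusted p = 0.000234) and endplate (log2 −2.63, edgeR adjusted p = 0.00172) were lower than bone and stroma. The highest Spry4 levels lay outside the gates. In the 8, 19, 2 and 18 ungated cells with at least 10 UMIs of Acta2, the smooth muscle actin gene, Spry4 had 14, 21, 4 and 17 UMIs, or 148 (80.7 to 247.5), 92.7 (57.4 to 142), 122 (33.2 to 312) and 112 (65.2 to 179) CPM. This group was chosen after the data were seen. Spry1 had 0 to 13 UMIs and Dusp6 0 to 2 UMIs in the same cells.

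**Figure D3:**
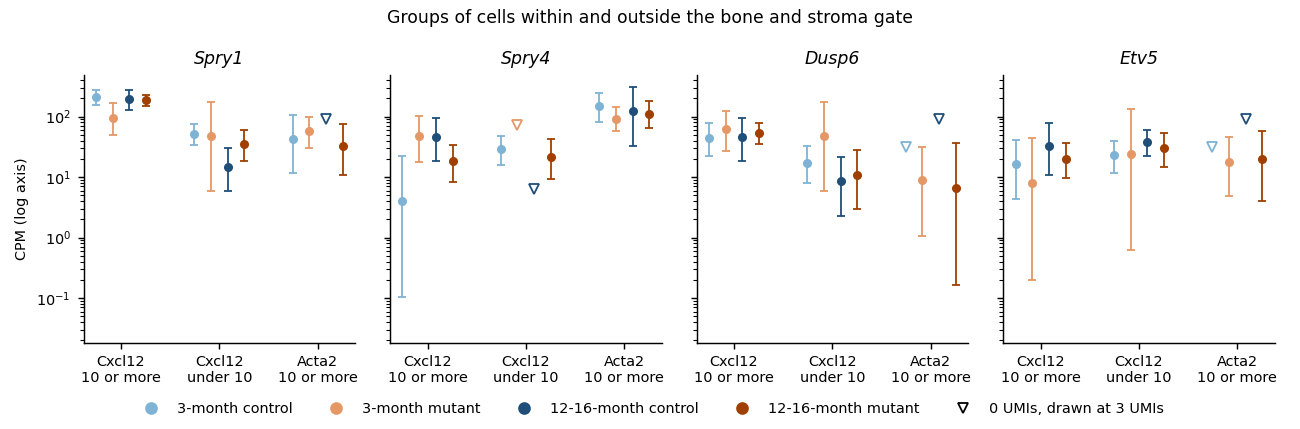
Spry1, Spry4, Dusp6 and Etv5 in CPM (log axis) in bone and stroma cells with at least 10 or under 10 UMIs of Cxcl12, marked cells left out, and in ungated cells with at least 10 UMIs of Acta2, with 95% Poisson intervals. Spry1 is highest with high Cxcl12 and Spry4 with Acta2, while Etv5 shows no such order. Triangles mark 0 UMIs and are drawn at 3 UMIs.

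Dusp6 (ENSMUSG00000019960, chromosome 10, 99263231 to 99267489) encodes the cytoplasmic ERK phosphatase and showed the largest fitted difference between the cartilage gates among the 6 tested members. It had 109, 41, 19 and 18 UMIs in other cartilage, or 14.3 (11.7 to 17.2), 13.4 (9.61 to 18.2), 19.1 (11.5 to 29.9) and 8.51 (5.04 to 13.4) CPM, and 3, 0, 1 and 0 UMIs in the endplate gate. The 142 endplate cells of the 3-month mutant library, with 2783164 UMIs in all, held no Dusp6 UMI. All 4 endplate values lay below all other cartilage values. With the 0 replaced by 3 counts, endplate Dusp6 was 12.4-fold lower in the 3-month mutant and 2.12-fold lower in the 12–16-month mutant. On the counted 0 the intervals of these ratios reached up to 0.104 and 0.644. The ratios in the control libraries were 0.339 (0.0689 to 1.02) and 0.157 (0.00378 to 0.988). The fitted log2 difference was −3.73 ± 0.78 (edgeR adjusted p = 0.00932) and kept its call under all 12 alternatives (edgeR adjusted p from 3.8e-06 to 0.0409). This value rests on near-empty endplate sums and is not a bound, and the same holds for Dusp6 in endplate against bone and stroma.

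Endplate cells were deeper than other cartilage cells in this comparison. The endplate gate asks for 3 UMIs of its markers, and its median cell had 17649, 17605.5, 26897.5 and 19527 UMIs, against 12581, 11380, 10287 and 7614 in other cartilage. Dusp6 was found in 69 of 532, 29 of 235, 8 of 78 and 15 of 220 cells of other cartilage and in 2 of 30, 0 of 142, 1 of 12 and 0 of 38 endplate cells. Thinned once to 3000 UMIs a cell, 0 endplate cells of any library held a Dusp6 UMI, which allows shares of up to 11.6%, 2.56%, 26.5% and 9.25%. Of the thinned other cartilage cells 6.12%, 4.27%, 5.71% and 3.41% held one, with 9, 1, 8 and 15 shallower cells left out and none in the endplate gate. The other cartilage share thus lay above the endplate limit only in the 3-month mutant, where the lower end of its interval (2.07%) lay below that limit. Thinned to 750 UMIs, 1 of 30 endplate cells of the 3-month control held Dusp6 (3.33%) against 0.940% of its other cartilage cells, and in the other libraries no endplate cell did. Of cells with Ptprc, thinned to 3000 UMIs, 4 of 41 in the 3-month mutant (9.76%) and 2 of 24 in the 12–16-month mutant (8.33%) held Dusp6. Dusp6 is also expressed by immune cells, and these cells are therefore no measure of free RNA for it. Bone and stroma had 25.3, 30.2, 19.7 and 34.1 CPM of Dusp6, higher than endplate with a log2 difference of −4.60 ± 0.77 for endplate (edgeR adjusted p = 0.00125) and not called against other cartilage (−0.87 ± 0.47, edgeR adjusted p = 0.185, and 0.0732 without marked cells). Cells with at least 10 UMIs of Cxcl12 had 44.5, 63.5, 46.4 and 54.4 CPM and those under it 17.3, 48.4, 8.51 and 10.8 CPM. Arid5b (r = 0.972) and Tagln2 (r = 0.961) were most like Dusp6 over the 12 sums.

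Dusp5 (ENSMUSG00000034765, chromosome 19, 53529109 to 53542431), the gene of a nuclear ERK phosphatase, had 17.8 (14.9 to 21.1), 14.0 (10.2 to 18.9), 8.05 (3.48 to 15.9) and 16.5 (11.5 to 23.0) CPM in other cartilage. The endplate gate had 6, 68, 0 and 4 UMIs, or 9.67, 24.4, 0 and 5.35 CPM, and bone and stroma 7, 19, 0 and 3. The gates overlapped, and no gate difference passed (log2 −0.86, 0.45 and 1.31, edgeR adjusted p = 0.348, 0.650 and 0.122). A single endplate cell of 38676 UMIs held 31 of the 68 UMIs of the 3-month mutant, and 10 of its 142 cells had any. Of the 19 bone and stroma UMIs of that library, 18 lay in marked cells. Without marked cells, other cartilage was higher than bone and stroma (log2 2.01, edgeR adjusted p = 0.0333), as it was with no filter on low counts (1.40, 0.0256), and over the alternatives the adjusted p reached 0.452. Thinned to 3000 UMIs, 17.1% of 41 cells with Ptprc in the 3-month mutant held Dusp5, against 2.14% of its other cartilage cells. Nif3l1 (r = 0.879) and Mob2 (r = 0.844) were most like it. Dusp4 (ENSMUSG00000031530, chromosome 8, 34807297 to 34819894) had 0 UMIs in the endplate gate of every library, 4, 0, 0 and 0 in other cartilage and 3, 1, 0 and 3 in bone and stroma, too few to compare between gates. Of the 13, 5, 1 and 6 Dusp4 UMIs over all passing cells, 6, 4, 1 and 2 lay in the ungated cells with at least 10 UMIs of Acta2.

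Etv5 (ENSMUSG00000013089, chromosome 16, 22381309 to 22439719) was detected in 166, 64, 22 and 51 cells of other cartilage, at 37.7 (33.5 to 42.3), 34.6 (28.3 to 41.9), 50.3 (37.3 to 66.3) and 36.4 (28.7 to 45.5) CPM. The endplate gate had 7, 55, 1 and 3 UMIs, or 11.3 (4.54 to 23.3), 19.8 (14.9 to 25.7), 3.00 (0.0761 to 16.7) and 4.01 (0.828 to 11.7) CPM, and every value lay below those of other cartilage. The ratios of endplate to other cartilage were 0.299, 0.571, 0.0597 and 0.110, with intervals below 1 in all 4 libraries. The fitted log2 difference was −1.84 ± 0.47 (edgeR adjusted p = 0.0225), and it did not pass without the 3-month control (−1.85, edgeR adjusted p = 0.112), the 12–16-month control (−1.64, 0.0724) or the 12–16-month mutant (−1.56, 0.117). Over the alternatives the adjusted p began at 3.9e-05. Bone and stroma, with 20.3, 10.4, 35.2 and 21.7 CPM, overlapped both cartilage gates, and neither difference passed (edgeR adjusted p = 0.290 and 0.0926, and 0.0845 and 0.144 without marked cells). With no filter on low counts, Etv5 was higher in other cartilage than in bone and stroma (log2 1.09, edgeR adjusted p = 0.0100). Thinned to 3000 UMIs a cell, 9.94%, 8.55%, 8.57% and 10.7% of other cartilage cells and 0%, 4.93%, 0% and 2.63% of endplate cells held Etv5, against 7.32% of 41 cells with Ptprc in the 3-month mutant and 0 of 24 in the 12–16-month mutant, which allows up to 14.2%. Nuak1 (r = 0.955) and Dcn (r = 0.937), the latter the proteoglycan decorin, were most like Etv5.

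Etv4 (ENSMUSG00000017724, chromosome 11, 101769742 to 101785371), the close relative of Etv5, had 55, 24, 6 and 13 UMIs in other cartilage, or 7.20 (5.42 to 9.37), 7.84 (5.02 to 11.7), 6.04 (2.22 to 13.1) and 6.15 (3.27 to 10.51) CPM. Its intervals overlapped between all 4 libraries there. The endplate gate had 2, 5, 2 and 3 UMIs and bone and stroma 0, 0, 2 and 2. With no filter on low counts, Etv4 was higher in other cartilage than in bone and stroma (log2 2.79, edgeR adjusted p = 0.00423), and not called between endplate and other cartilage (−1.36, edgeR adjusted p = 0.224).

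Phlda1 (ENSMUSG00000020205, chromosome 10, 111506286 to 111508645) was counted in 80.3%, 68.5%, 71.8% and 69.5% of other cartilage cells. It had 350.1 (337 to 364), 288 (269 to 307), 423 (383 to 465) and 508 (478 to 539.5) CPM there, 521 (466 to 581), 116 (104 to 129.8), 111 (78.3 to 153) and 155 (128 to 186) CPM in the endplate gate, and 185 (156 to 218), 39.4 (27.3 to 55.1), 35.2 (22.8 to 51.9) and 40.2 (28.6 to 55.0) CPM in bone and stroma. In 3 libraries the order was other cartilage, endplate, bone and stroma, and in the 3-month control endplate was highest. A single endplate cell of 44629 UMIs gave 57.6% of the Phlda1 UMIs of that library, and without it the level was 238 CPM, below other cartilage. The fitted log2 differences were −1.38 ± 0.41 for endplate against other cartilage (edgeR adjusted p = 0.0412), 1.64 ± 0.42 for endplate against bone and stroma (0.0140) and 3.02 ± 0.44 for other cartilage against bone and stroma (0.000455).

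The first of these depended on the libraries and gate. It did not pass without the 3-month mutant (−1.33, edgeR adjusted p = 0.0918), the 12–16-month control (−1.15, 0.207) or the 12–16-month mutant (−1.15, 0.179), with the endplate limit raised to 5 UMIs (−1.28, 0.0734) or without doublets (−1.33, 0.0525), and its lowest value was 0.000257. Against bone and stroma it did not pass without the 12–16-month control (1.67, 0.0532) or the 12–16-month mutant (1.48, 0.0666), and its lowest value was 2.61e-05. Thinned to 3000 UMIs, 48.8%, 41.9%, 54.3% and 50.7% of other cartilage cells held Phlda1, against 4.88% of 41 cells with Ptprc in the 3-month mutant library and 8.33% of 24 in the 12–16-month mutant. The other libraries had 1 and 2 such cells at that depth. In the endplate gate 30%, 16.9%, 33.3% and 21.1% of cells held Phlda1.

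Fos, an immediate early gene, was the gene most like Phlda1 over the 12 sums (r = 0.955), followed by Siah2 (r = 0.9499). Fos had 6555, 4486, 5205 and 3906 CPM in other cartilage, 4632, 2005, 1433 and 1821 CPM in the endplate gate and 1653, 458, 341 and 270 CPM in bone and stroma. The list of 17 dissociation stress genes, which includes Fos, summed to 19340 to 29332 CPM in other cartilage, 10024 to 23375 CPM in the endplate gate and 2206 to 8769 CPM in bone and stroma. The highest sum of each gate was in the 3-month control library. Within other cartilage Phlda1 did not share the order of this sum, since the 12–16-month mutant had the highest Phlda1 level and the lowest stress sum. Cells were freed by enzyme digestion before sorting, and the part of that step in the Phlda1 levels was not tested.

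**Figure D4:**
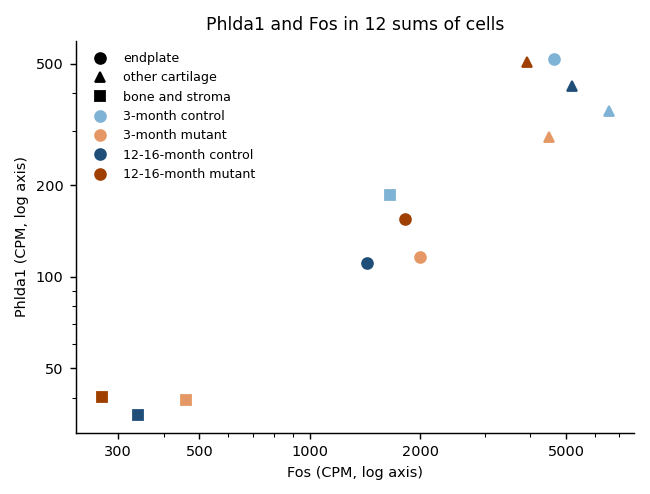
Phlda1 against Fos, both in CPM on log axes, in the 12 sums of cells, with the gate as the shape and the library as the colour. The bone and stroma sums other than the 3-month control lie lowest on both axes, and the 4 other cartilage sums and the 3-month control endplate sum lie highest.

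The members did not move as a block over the 12 sums. Among the 6 with at least 200 UMIs, the Pearson r of log2(CPM + 10) ran from −0.64 for Spry1 and Phlda1 to 0.73 for Spry1 and Dusp6. These values describe sums that share libraries and depth.

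Genotype and age were tested over the 4 libraries of each gate, a test added after the data were seen that leaves 1 residual degree of freedom and takes a difference between the ages in the effect of genotype as error. No member passed for genotype or for age in any gate by edgeR, where 2, 6 and 6 members could be tested in endplate, other cartilage and bone and stroma, and 6 without marked cells. Of all genes, 0.0611%, 1.7%, 0% and 1.13% passed for genotype and 0%, 1.22%, 0% and 0.0975% for age in the same order. At an unadjusted p under 0.05, 1 member was found for age in other cartilage, Spry2, at −0.94 ± 0.30 on the log2 scale from the younger to the older libraries (edgeR adjusted p = 0.206). In bone and stroma without marked cells Phlda1 was found in this way for genotype (−0.86 ± 0.41, edgeR adjusted p = 0.455) and for age (−1.53 ± 0.41, 0.295), and with all cells no member was. The genotype differences of the tested members in other cartilage ran from −0.49 ± 0.36 for Dusp6 to 0.31 ± 0.30 for Spry2 (edgeR adjusted p = 0.820 and 0.872).

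For each age, the library labelled mutant was also set against the control, gate by gate. A gene was counted as past the fold where the CPM ratio exceeded 1.5 or fell below 1/1.5, with at least 20 UMIs over both libraries. No member passed that fold in the same direction at both ages in the endplate or other cartilage gates, where 1 and 5 members were measured at both ages. Of all genes measured at both ages in those gates, 217 of 7089 (3.06%) and 290 of 10064 (2.88%) were higher and 119 (1.68%) and 223 (2.22%) lower. In bone and stroma Etv5 passed the fold downward at both ages, as did 195 of 8202 genes (2.38%), with intervals that included 1 at 3 months (0.515, 0.201 to 1.24, on 9 and 16 UMIs) and at 12–16 months (0.616, 0.328 to 1.15). Without marked cells it fell short of 20 UMIs at 3 months (0.574, 0.0641 to 2.44, on 2 and 16 UMIs). Of the 4 members then measured at both ages, Spry4 and Dusp6 passed the fold upward, as did 955 of 6287 genes (15.2%). Their intervals included 1 at both ages, with values given below.

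In other cartilage, the gate with most cells, 6 of the 8 measured members stayed within 1.5-fold at 3 months. Spry2 was the 1 member that was higher (12.2% of all genes) and Spry4 the 1 that was lower (13.6%). Spry2 rested on 195 and 303 UMIs, with a ratio of 1.61 (1.33 to 1.93), and 1.505 (1.24 to 1.82) without the top cell of each library. Spry4 rested on 5 and 21 UMIs, and its interval included 1 (0.594, 0.175 to 1.62). The ratios of Etv5 (0.918, 0.728 to 1.15), Dusp6 (0.939, 0.639 to 1.36), Dusp5 (0.789, 0.546 to 1.12) and Etv4 (1.09, 0.645 to 1.79) had intervals that included 1. Phlda1 was slightly lower, at 0.822 (0.761 to 0.887).

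At 12–16 months Dusp5 was the 1 of 5 measured members past the fold upward (11.8% of all genes) and Dusp6 the 1 downward (13.3%) in other cartilage. Dusp6 had 18 UMIs under the mutant label and 19 under the control label, a ratio of 0.445 (0.220 to 0.896), and 0.506 (0.220 to 1.17) without the top cells. Dusp5 had 35 and 8 UMIs, a ratio of 2.06 whose interval included 1 (0.937 to 5.13). Spry2, past the fold at 3 months, had a ratio of 0.814 (0.510 to 1.32), Etv5 one of 0.724 (0.5004 to 1.05) and Phlda1 one of 1.20 (1.07 to 1.35). Whether the ages differed in these ratios was not tested.

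In the endplate gate at 3 months, 4 members were measured. Dusp5 and Etv5 were higher (21.5% of all genes) and Spry2 and Phlda1 lower (16.1%). Dusp5 had a ratio of 2.53 (1.10 to 7.12), and 2.05 (0.738 to 7.94) without the top cells. Etv5 had 55 UMIs in 31 cells of the mutant library against 7 UMIs in 3 cells of the control, a ratio of 1.75 (0.795 to 4.56). The interval of Spry2 also included 1 (0.446, 0.180 to 1.20). Phlda1 had a ratio of 0.224 (0.191 to 0.262), and 0.445 (0.362 to 0.550) without the top cells, of which the control cell named above took most. At 12–16 months only Phlda1 had 20 UMIs, and it passed the fold in neither direction (19.3% and 14.4% of all genes were higher and lower), with a ratio of 1.40 (0.957 to 2.08). Without the top cells it was 1.86 (1.15 to 3.14). Dusp6, at 0 UMIs in both mutant endplate sums and 3 and 1 UMIs in the control sums, gave no fold.

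**Figure D5:**
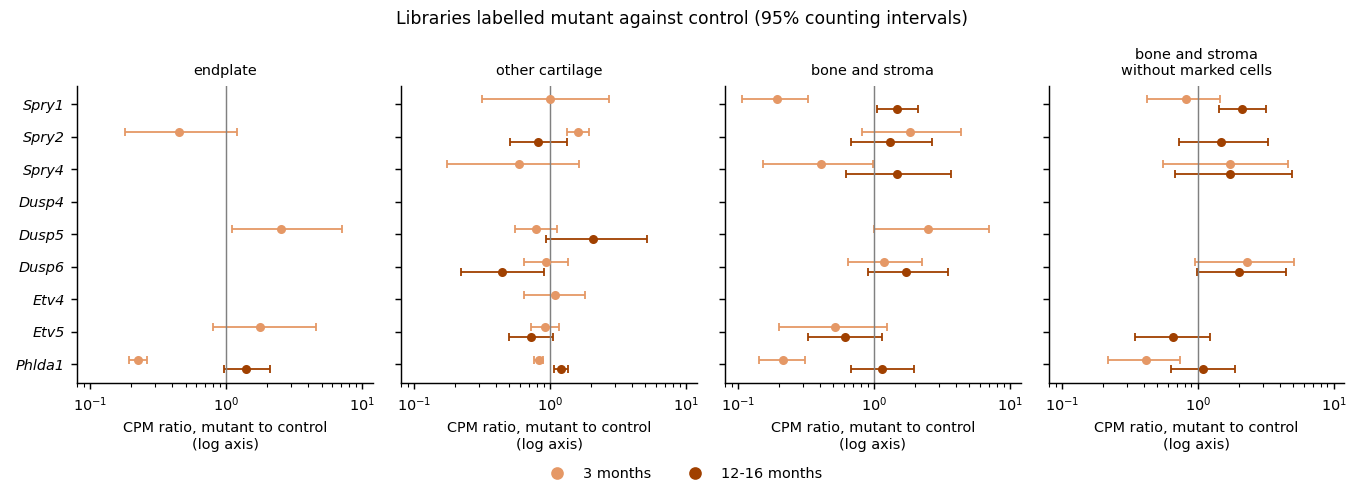
Mutant over control CPM ratio (log axis), by the labels of the libraries, at 3 months and at 12–16 months, with 95% conditional binomial intervals, for genes with at least 20 UMIs over both libraries in each gate, and for bone and stroma also without marked cells. In other cartilage most points lie near 1, and in bone and stroma the 3-month ratio of Spry1 moves from 0.192 to 0.814 once marked cells are left out.

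In bone and stroma the median gene was itself higher under the mutant label, by 0.28 on the log2 scale at 3 months and 0.31 at 12–16 months, and the TMM factors of edgeR brought it to −0.03 and 0.04. At 3 months Spry2 and Dusp5 were higher (38% of all genes) and Spry1, Spry4, Etv5 and Phlda1 lower (19.3%), of 7 measured members. Most of these values moved once marked cells were left out. Without them 4 members had 20 UMIs, of which Spry4 and Dusp6 were higher (31.1%) and Phlda1 lower (21%). The ratio of Spry1 went from 0.192 (0.107 to 0.327) to 0.814 (0.426 to 1.45), that of Spry4 from 0.407 (0.153 to 0.984) to 1.72 (0.552 to 4.64) and that of Dusp5 from 2.49 (1.00 to 6.997) to 0.657 (0.0146 to 5.11). Dusp6 went from 1.19 (0.639 to 2.25) to 2.30 (0.961 to 5.14), and with TMM factors on all cells its log2 value was −0.07. Phlda1 stayed lower, at 0.213 (0.142 to 0.312) and 0.418 (0.217 to 0.738), with 19 of its 34 mutant UMIs in 1 marked cell of 193137 UMIs. The 3-month mutant sum without marked cells held 14 cells.

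At 12–16 months Dusp6 was higher (32.4% of all genes) and Etv5 lower (7.87%) in bone and stroma, of 6 measured members. Without marked cells, where the median gene was higher by 0.39, Spry1, Spry4 and Dusp6 were higher (37.3%) and Etv5 lower (6.82%). The ratio of Spry1 was 1.48 (1.06 to 2.09) with marked cells and 2.11 (1.43 to 3.17) without, that of Dusp6 1.73 (0.900 to 3.50) and 2.02 (0.988 to 4.45), and that of Etv5 without them 0.654 (0.344 to 1.24). Spry4 without them had a ratio of 1.74 (0.686 to 4.96), on 17 and 7 UMIs. On TMM factors the log2 values of Spry1, Dusp6 and Etv5 with all cells were 0.29, 0.52 and −0.97. The Cxcl12-rich cells numbered 49 in this mutant library and 9 in the control, and within them Spry1 had 187 (151 to 229) and 192 (129 to 276) CPM. A shift in the mix of cells and a change within cells cannot be told apart in the sums of the gate.

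Age was compared within each label. In other cartilage of the mutant libraries Spry2 was lower at 12–16 months, at 0.386 (0.279 to 0.527) of its 3-month level, and in controls the ratio was 0.761 (0.505 to 1.11). Phlda1 was higher in this gate under both labels, at 1.77 (1.61 to 1.93) in the mutant and 1.21 (1.09 to 1.34) in the control libraries. Dusp5 was lower in controls (0.452, 0.191 to 0.917) and had a ratio of 1.18 (0.732 to 1.88) in mutants. Etv5 and Dusp6 had intervals that included 1 under both labels. In the endplate gate Phlda1 went opposite ways, at 0.213 (0.148 to 0.300) in the controls, where 1 cell of the 3-month library held most UMIs, and 1.33 (1.07 to 1.65) in the mutants. In the endplate gate of the mutant libraries Dusp5 (0.219, 0.0580 to 0.587) and Etv5 (0.203, 0.0406 to 0.625) were lower with age and Spry2 higher (2.79, 1.21 to 6.29), on 3 to 68 UMIs each. In bone and stroma of the controls Phlda1 was at 0.190 (0.119 to 0.292), and at 0.216 (0.136 to 0.333) without marked cells, while Fos went from 1653 to 341 CPM. In the mutants its ratio was 1.02 (0.628 to 1.67), and Spry1 had a ratio of 5.70 (3.40 to 10.1), and 1.46 (0.834 to 2.76) without marked cells.

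Lists of genes around the circuit give the setting of these values. Of 25 parts of the RAS to ERK pathway 24 were tested, and 3 were higher and 4 lower in endplate than in other cartilage (12.5% and 16.7%, against 8.72% and 9.78% of all genes), with a median log2 difference of −0.06 against −0.01 for all genes. Rras2, a RAS-related GTPase, was higher (1.84 ± 0.34, edgeR adjusted p = 0.00535), as was the FGF receptor adaptor Frs2 (1.03 ± 0.22, 0.00958), and Rras was lower (−1.44 ± 0.29, 0.00813). Against bone and stroma the scaffold gene Ksr1 was lower in endplate (−5.27 ± 0.47, edgeR adjusted p = 2.64e-05) and other cartilage (−3.00 ± 0.33, 7.52e-05), and the ribosomal S6 kinase gene Rps6ka2 was higher in endplate (3.27 ± 0.39, 0.000149). In those contrasts 5 and 4 of the parts were higher (20.8% and 16.7%, against 15.5% and 18.7% of all genes) and 4 and 4 lower (16.7% each, against 14.2% and 15%). Without marked cells 4 and 5 were higher and 5 and 6 lower. Of all genes 18.1% and 22.7% were then higher and 16.8% and 18.7% lower. Ksr1 and Rps6ka2 kept these calls without marked cells, as did Mras, which was higher in both (1.60 and 2.10, edgeR adjusted p = 0.00197 and 0.000206).

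Of 10 tested growth factor receptors, 1 was higher, 3 were lower and 6 were not called between endplate and other cartilage. Of all genes, 8.72% were higher and 9.78% lower there. Fgfr3 was higher in endplate than in other cartilage (1.04 ± 0.22, edgeR adjusted p = 0.0107), at 269, 202, 336 and 407 CPM against 118, 112, 124 and 155 CPM. Egfr (−3.97 ± 0.68, edgeR adjusted p = 0.00338), Fgfr2 (−1.55 ± 0.34, 0.0114) and Ntrk2 were lower. Fgfr2 had 174, 241, 111 and 85.6 CPM in endplate against 381, 463, 405 and 338 CPM in other cartilage. In the same libraries, then, endplate had more Fgfr3 but less Fgfr2 mRNA than other cartilage, and less Dusp6, Spry2 and Etv5 mRNA. The FGF receptor genes thus did not differ in 1 direction. Against bone and stroma Fgfr3 was higher in both cartilage gates (3.60 and 2.56, edgeR adjusted p = 7.29e-06 and 4.25e-05), and Pdgfra was lower in both (−5.77 and −4.37, 4.61e-05 and 4.81e-05), with 1 and 2 receptors higher and 4 and 4 lower in all, where 15.5% and 18.7% of all genes were higher and 14.2% and 15% lower. Without marked cells 2 and 2 were higher and 5 and 5 lower. Of all genes 18.1% and 22.7% were then higher and 16.8% and 18.7% lower. The Fgfr3 differences were 3.05 and 2.00 (edgeR adjusted p = 6.16e-07 and 9.76e-06) without marked cells.

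Another list held genes named as RAS and ERK pathway inhibitors, outside the 9 members, of which 18 were tested. In endplate against other cartilage 0 of them were higher and 5 lower (27.8%, against 9.78% of all genes). The 5 were Dusp1, Dusp3, Dusp7, Dusp8 and Dusp14, and Dusp1 is also on the dissociation stress list. Whether these phosphatases act on ERK in these cells was not tested. The median log2 difference of all 18 tested inhibitors was −0.35. Dusp1, a nuclear phosphatase and immediate early gene, had 327 to 618 CPM in endplate and 1311 to 2021 CPM in other cartilage (−1.99 ± 0.20, edgeR adjusted p = 0.000263), and Dusp8 (−4.95 ± 0.68, edgeR adjusted p = 0.00103) and Dusp14 (−3.78 ± 0.67, 0.00399) had at most 2.68 and 14.5 CPM in endplate. In the contrast with bone and stroma 2 were higher and 4 lower in endplate (11.1% and 22.2%, against 15.5% and 14.2% of all genes), with the receptor inhibitor Lrig3 higher (3.32 ± 0.40, edgeR adjusted p = 0.000179) and the RAS GTPase-activating gene Rasa3 lower (−2.05 ± 0.34, 0.00117), and 5 were higher and 2 lower in other cartilage (27.8% and 11.1%, against 18.7% and 15%). Without marked cells these counts were 3 and 7 in endplate, where 18.1% and 16.8% of all genes were called, and 5 and 3 in other cartilage, where 22.7% and 18.7% were.

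Of 20 tested other ERK-induced genes, 2 were higher and 10 lower in endplate than in other cartilage (10% and 50%, against 8.72% and 9.78% of all genes), with a median of −1.27, and Hbegf, an EGF receptor ligand gene (−4.13 ± 0.36, edgeR adjusted p = 0.000152), Maff (−4.50 ± 0.49, 0.000371) and Phlda3 (−2.90 ± 0.47, 0.00255) led. The 2 that were higher were Epha4 and Ccnd1. Against bone and stroma 7 were higher and 4 lower in endplate (35% and 20%, against 15.5% and 14.2% of all genes, median 0.63). In other cartilage 12 were higher and 2 lower (60% and 10%, against 18.7% and 15%, median 2.25). Without marked cells these counts were 7 and 3 in endplate, where 18.1% and 16.8% of all genes were called. They were 13 and 2 in other cartilage, where 22.7% and 18.7% were. This list shares genes such as Fos, Egr1, Junb and Ier2 with the dissociation stress list. Of its 17 genes, 0 were higher and 6 lower in endplate against other cartilage. Against bone and stroma 13 were higher and 0 lower in endplate, and 17 were higher in other cartilage. Without marked cells 14 and 17 were higher and 0 lower. The shares of all genes are those given for the ERK-induced list. The medians of both lists had the same sign in each contrast, and the part of the stress genes in the ERK-induced list was not tested.

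Between genotypes, genes of these lists that passed 1.5-fold the same way at both ages are given with their ratios at 3 months and at 12–16 months. Gab1, an adaptor that links receptors to RAS, was higher under the mutant label in endplate (2.07, 1.78 to 2.42, and 2.18, 1.56 to 3.12) and in other cartilage (4.60, 4.01 to 5.27, and 2.47, 1.84 to 3.38). Over the 4 libraries of other cartilage it passed the test (log2 1.82 ± 0.27, edgeR adjusted p = 0.000319), and in endplate it did not (1.09 ± 0.36, 1.00). The RAS exchange factor gene Sos1 was higher in endplate (1.75, 1.07 to 3.03, and 2.06, 0.944 to 5.12), and Rras2 was higher in other cartilage (2.63 and 2.91, edgeR adjusted p = 0.0969 over the libraries). Of the inhibitors in endplate, the EGF receptor inhibitor gene Errfi1, itself induced by growth factors, was lower (0.514, 0.429 to 0.617, and 0.526, 0.354 to 0.782), and the ubiquitin ligase gene Cbl was higher, with intervals that included 1 (1.52, 0.910 to 2.70, and 1.70, 0.860 to 3.66). Over the 4 libraries of endplate, Sos1, Errfi1 and Cbl did not pass (log2 0.91 ± 0.42, −0.94 ± 0.38 and 0.68 ± 0.41).

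In other cartilage Egr3 was higher (6.10, 3.45 to 11.2, and 14.6, 2.43 to 594, the latter on 1 control UMI) and passed over the 4 libraries (2.80 ± 0.49, edgeR adjusted p = 0.00204), while Myc (0.551 and 0.522) and Phlda3 (0.582 and 0.658) were lower and did not pass (edgeR adjusted p = 0.160 and 0.387). Of the stress genes there Hspa1b (1.70 and 1.91) and Hspb1 (1.80 and 1.85) were higher, and Atf3 (0.497 and 0.651) and Socs3 (0.556 and 0.623) lower. In all, 2 of 24 pathway parts were higher in other cartilage (8.33%) and 2 of 22 in endplate (9.09%), with 0 lower, against the shares of all genes of 2.88% and 3.06% given above. No receptor of 12 and 6 and no inhibitor of 20 in other cartilage passed the fold in this way, and of 14 inhibitors in endplate 1 was higher and 1 lower.

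Among bone and stroma cells, where 909 of 8202 genes were higher (11.1%) and 195 lower (2.38%), 2 of 23 parts (Sos1 and Sos2), 1 of 10 receptors (Igf1r) and 2 of 17 inhibitors (Dusp16 and Dusp2) were higher, shares of 8.7%, 10% and 11.8%. Of 14 ERK-induced genes 3 were lower (Bmp2, Egr3 and Klf4), and of 15 stress genes Hspa1a was higher (1.65 and 1.61) and Atf3 lower (0.0676 and 0.287). Without marked cells 15.2% of all genes were higher and 2.43% lower. Of the lists, 7 of 23 parts, 5 of 9 receptors (Egfr, Fgfr3, Igf1r, Pdgfra and Pdgfrb) and 3 of 14 inhibitors were then higher. Of 12 ERK-induced genes, 1 was higher (Spsb1) and 2 were lower (Fos and Klf4). The stroma list was also higher under the mutant label in these sums (11043 and 10958 CPM against 4783 and 4160 CPM). Its part in these counts was not tested. Sos1 (1.88 and 2.53), Sos2 (4.14 and 1.96), Igf1r (1.81 and 1.96) and Dusp16 (2.01 and 2.08) still passed, while Dusp2 had 0 UMIs at 3 months and 3 at 12–16 months. Hspa1a turned to 0.183 (0.0826 to 0.354) at 3 months. Over the 4 libraries without marked cells, Klf4 (−2.07 ± 0.39, edgeR adjusted p = 0.0112), Egr3 (−3.45 ± 0.81, 0.0409) and Atf3 (−4.47 ± 0.66, 0.00133) were lower and Etv1 higher (2.39 ± 0.56, 0.0404) under the mutant label, and with all cells none of the listed genes passed. Without marked cells 4 of 74 tested list genes passed for genotype, as did 1.13% of all genes. In the 14 cells left in the 3-month mutant Egr3 and Atf3 had 0 UMIs, against 34 and 296 in the control. At 12–16 months they had 3 and 5 UMIs, against 13 and 22. Egr3 was thus called upward in other cartilage and, on these few mutant UMIs, downward in bone and stroma without marked cells. A difference between the gates in the effect of genotype was not tested.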

How the data were processed

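Single-cell RNA-sequencing was measured in 4 libraries, 1 per genotype and age. The authors aligned the reads with Cell Ranger 8.0.0 to mm10 with tdTomato added, and deposited filtered matrices of UMI counts, used here with no correction for free RNA. Gene and barcode tables gave the names, and 32158 of 32286 gene identifiers (99.6%) were found in GENCODE vM21 (GRCm38). Cell Ranger counts reads on the gene's strand, and Spry1, Spry4, Dusp5 and Phlda1 overlap a gene on the other strand.

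Passing cells had over 750 UMIs, over 500 genes and under 7% mitochondrial UMIs (717, 484, 135 and 421 of 922, 542, 163 and 545 barcodes, with 9429264, 7287981, 2154537 and 4398951 UMIs). Scrublet in scanpy 1.11.5, at an expected rate of 6%, called 2, 4, 9 and 4 doublets, which were kept and left out as an alternative. Marker gates came from raw counts, with the endplate gate taken first. UMIs were summed per library and gate. Gates were compared with edgeR 4.0.16 (R 4.3.3), genes kept by its filter with the gate as group, and with DESeq2 1.42.0 as an alternative. Genotype and age were also tested by edgeR over the 4 sums of each gate, with both as terms and no interaction, a fit added after the data were seen. Genotypes and ages were compared as CPM ratios with exact conditional binomial intervals, levels with exact Poisson intervals and shares with Clopper-Pearson intervals, computed with scipy 1.17.1, numpy 2.4.6 and pandas 2.3.3 (Python 3.11.15), and figures with matplotlib 3.10.9. A count of 0 was replaced by 3 to give a fold, which leaves out the error of the other count. The scripts were tested on simulated data. With 1 library per condition, the spread between mice is not measured.

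The 9 members and 5 gene lists were chosen with earlier results of these data known. Named were all members, the genes that set the gates, Nf1, at most 3 list genes per contrast with the lowest p and at least 100 UMIs, list genes past 1.5-fold in 1 direction at both ages, and the 2 genes most like each member with at least 200 UMIs. Groups set by Cxcl12, Acta2 and Ptprc, and the further names in short counts, were chosen after the values were seen. Other normalizations, low-count filters, gate limits, left-out libraries and left-out cells were tried as alternatives.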

Additional observations from a re-analysis of the deposited data

Results flagged for a closer look

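The ratio of the mutant to the control library pointed in opposite directions at the 2 ages in some sums, with intervals that excluded 1 at both. This held for Phlda1 in other cartilage, Spry1 in bone and stroma with all cells, and the immediate early genes Fos and Egr1. The intervals cover counting error only, and the share of all genes that reversed in this way is not given here. The difference between the ages was not tested, since each ratio rests on 1 library per genotype. Phlda1 in other cartilage had ratios of 0.822 at 3 months and 1.20 at 12–16 months, while Fos, the gene most like it, had ratios of 0.684 and 0.750 there. In the endplate gate Fos had ratios of 0.433 (0.414 to 0.453) and 1.27 (1.14 to 1.41) and Egr1 ratios of 0.684 (0.634 to 0.738) and 1.19 (1.03 to 1.37). Spry1 in bone and stroma had ratios of 0.192 and 1.48, and without cells that held a UMI of Ptprc, Cdh5 or Myh11 they were 0.814 (0.426 to 1.45) and 2.11 (1.43 to 3.17). Egr1 in bone and stroma had ratios of 0.422 (0.365 to 0.487) and 1.46 (1.20 to 1.78), and of 0.687 (0.544 to 0.859) and 1.37 (1.11 to 1.70) without those cells.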

How the results depend on the processing

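The calls of Dusp6 and Spry1 between gates given above held under all 12 alternatives. With a library left out, 832 to 1920 genes and 2 to 3 members were called between endplate and other cartilage (1818 and 4 with all libraries), 2064 to 2763 genes and 2 to 4 members between endplate and bone and stroma (2917 and 3), and 2374 to 3424 genes and 2 members between other cartilage and bone and stroma (3310 and 2). Without the 3-month control, the 12–16-month control and the 12–16-month mutant library, 832, 886 and 874 genes were called in the first contrast. Without the 3-month mutant library, 1920 genes were called there, against 1818 with all libraries. Each of these fits has fewer samples by construction, and the cause of the lower counts was not tested. With no filter on low counts, 7 members were called between other cartilage and bone and stroma, Spry2, Spry4, Dusp5, Etv4 and Etv5 beside Spry1 and Phlda1. The share of all genes called in that setting is not given here, so this count cannot be set against a background.

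Without cells with Ptprc, Cdh5 or Myh11, the log2 ratio of mutant to control in bone and stroma at 3 months reversed for Spry4 (0.79) and Dusp5 (−0.61). Members past the fold there went from 6 of 7 measured to 3 of 4, and to 2 at 50 UMIs. Of all genes 38% and 19.3% were higher and lower with those cells, and 31.1% and 21% without. At 12–16 months the members went from 2 of 6 to 4 of 6. The shares of all genes were then 32.4% and 7.87%, and 37.3% and 6.82% without those cells. This count of 2 went to 4 without the top cell, to 1 with TMM factors and to 0 at 2-fold or 50 UMIs. In other cartilage at 3 months the 2 members became 1 without the top cell, 0 with the endplate limit at 5, 0 at 2-fold and 1 at 50 UMIs, and at 12–16 months 0 at 50 UMIs. In endplate at 12–16 months 1 member passed, in place of 0, without the top cell, with the endplate limit at 5 or with cells weighted equally. Stricter limits leave fewer UMIs, and other causes were not tested. For settings whose share of all genes is not printed, the counts of members cannot be set against a background. The fit of genotype and age over 4 libraries pairs the libraries by age. In bone and stroma it called 0 genes for either term, and without those cells 93 for genotype and 8 for age, with 0 members in each case. Leaving out a library leaves that fit no residual degree of freedom.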
